A study of Rattus norvegicus with 8 samples.

Results

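A set of 7 genes of the postsynaptic density and its signalling partners were followed in the medial prefrontal cortex of adult rats that had received fluoxetine as juveniles. They are Dlg4, Shank2, Homer3 and Lzts3, which encode scaffolds, Camk2a and Cit, which encode kinases, and Arhgef7, which encodes an activator of small GTPases. The members were those of these 7 genes with a probe in the authors' deposited lists of changed probes, matched by the gene name in the list or by the current rat symbol of its gene ID. The rule gave 7 probes, 1 for each gene, out of 582 listed probes and 15207 probes on the array. All 7 stand among the 322 probes listed as higher after fluoxetine and 0 among the 260 listed as lower. The authors listed a probe as higher when its mean log2 value in the treated group was at least 0.4, its p at most 0.05 and its signal flagged as detected in at least 3 or 4 treated arrays. The difference between the groups therefore chose these genes, and it is described here without a test and supports nothing by itself.

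Whole medial prefrontal cortex was taken at 6 months of age from rats of 2 groups with 4 samples each. The JFLX group was given fluoxetine, an antidepressant that blocks the reuptake of serotonin, between postnatal days 28 and 48 at a dose of 10 mg/kg. Control rats were given the vehicle alone, a solution of 5% sucrose, on those days. Each sample was hybridised with a single dye to a custom Agilent rat array, and all 8 arrays lay on 1 slide. The control arrays filled one position block of that slide and the JFLX arrays the other, so position and treatment cannot be told apart. The sources used here give neither strain nor sex, nor whether each sample came from its own animal, and all spreads below are those between these samples. Descriptions of control replicates 2 to 4 mention fluoxetine, but their titles name them as vehicle controls, as do the source names, and the titles were followed.

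The postsynaptic density is the protein-rich layer beneath the membrane of excitatory synapses, where glutamate receptors are held opposite the release site. Dlg4 protein, also called PSD95, binds receptors at the membrane, Shank proteins form a deeper layer that is linked to it through adaptors, and Homer proteins join Shank to metabotropic glutamate receptors. Camk2a, the alpha subunit of calcium/calmodulin-dependent kinase II, is an abundant kinase of forebrain synapses whose activity is required for many forms of lasting synaptic strengthening. In the prefrontal cortex most such synapses lie on the dendritic spines of pyramidal neurons.

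The measurement of each gene rests on a single probe of 60 bases, whose sequences are shown because each is all that the array sees of its transcript. They are given 5′ to 3′ as in the authors' deposited table, in lower case throughout since the whole run is the measured part.
Dlg4: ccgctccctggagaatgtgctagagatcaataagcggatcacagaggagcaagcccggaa
Shank2: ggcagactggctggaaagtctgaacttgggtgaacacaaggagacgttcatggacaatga
Homer3: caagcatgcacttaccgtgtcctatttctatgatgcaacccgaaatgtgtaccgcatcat
Lzts3: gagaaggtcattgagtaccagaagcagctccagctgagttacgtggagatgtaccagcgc
Cit: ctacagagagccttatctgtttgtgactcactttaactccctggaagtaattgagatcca
Arhgef7: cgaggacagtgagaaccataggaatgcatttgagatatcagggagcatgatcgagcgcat
The Camk2a probe is described in the deposited table as lying in the 3′ untranslated region of the alpha-subunit mRNA, and its letters are not printed.

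Positions below are as deposited, on a genome build that the sources used here do not name. The Dlg4 probe lies at chr10:56902480-56903016 on the plus strand and the Arhgef7 probe at chr16:82527260-82527478 on the minus strand. These stretches of 537 and 219 positions are longer than the 60 bases of the probe, so the matching sequence is split on the chromosome. The other 5 probes cover 60 contiguous positions. They are Shank2 at chr1:205005382-205005441 and Camk2a at chr18:57023052-57023111 on the plus strand, and Homer3 at chr16:19624628-19624687, Lzts3 at chr3:118170750-118170809 and Cit at chr12:41728570-41728629 on the minus strand. For the 6 genes with an entry in the RefSeq promoter table of GRCr8, the strand of the probe was that of the gene in 6 of 6. GC content ran from 41.7% for Cit to 55.0% for Dlg4. At least 1 forward reading frame was free of stop codons in all 7 probes, the untranslated Camk2a probe included, so an open frame does not place a probe in coding sequence. For the 6 printed probes the sources used here do not say which exon or untranslated region they lie in. The Shank2 probe is annotated to transcript variant 1, and the Cit probe to citron without a named isoform, so a product with the kinase domain and one without it are not told apart.

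All values are log2 signals normalised by the authors and centred at each probe on the median of the 4 control arrays, so that they show differences between arrays and no absolute level. Among the scaffolds, Dlg4 had the largest difference of all members. It stood at -0.13, 0.12, 0.04 and -0.04 on control arrays 1 to 4 and at 0.67, 0.92, 0.89 and 0.98 on JFLX arrays 1 to 4. Every JFLX array lay above every control array, with 0.55 between the lowest JFLX and the highest control value. The group means were 0.00 ± 0.11 in control and 0.86 ± 0.14 in JFLX (SD, n = 4 each), a difference of 0.87 ± 0.11 (SE) on the log2 scale or 1.83-fold.

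Lzts3 encodes ProSAPiP1, a protein that binds the PDZ domain of Shank proteins, and it is listed under that older name. Its log2 values were 0.04, -0.04, 0.14 and -0.33 on control arrays 1 to 4 and 0.60, 0.60, 0.79 and 0.65 on JFLX arrays 1 to 4. The groups were separate by 0.45, the JFLX arrays lay close together, and control replicate 4 was the lowest. With means of -0.05 ± 0.20 and 0.66 ± 0.09 (SD, n = 4 each), the difference was 0.71 ± 0.13 (SE) or 1.63-fold.

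Shank2, one of the 3 Shank scaffolds, stood at 0.05, 0.06, -0.05 and -0.31 on the control arrays and at 0.21, 0.57, 0.42 and 0.55 on the JFLX arrays, each from replicate 1 to 4. The groups did not overlap, and 0.15 lay between them. JFLX replicate 1 was the lowest treated array, as it was for Dlg4. The means of -0.06 ± 0.17 and 0.44 ± 0.17 (SD, n = 4 each) differed by 0.50 ± 0.13 (SE), which is 1.41-fold.

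Homer3 encodes a Homer adaptor that is best known from cerebellar Purkinje cells. The control arrays 1 to 4 had -0.19, 0.26, -0.31 and 0.19, a range of 0.57, and the JFLX arrays 0.46, 0.43, 0.29 and 0.42, a range of 0.17. Control replicates 2 and 4 came close to the treated arrays, and the gap between the groups was 0.03. The difference of 0.41 ± 0.15 (SE, n = 4 per group), or 1.33-fold, came from means of -0.01 ± 0.28 and 0.40 ± 0.07 (SD).

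Of the kinase genes, Cit encodes citron, which occurs in the postsynaptic density and, as citron kinase, in the dividing cell. Its log2 values were -0.14, 0.33, 0.03 and -0.03 on control arrays 1 to 4 and 0.56, 0.94, 0.55 and 0.63 on JFLX arrays 1 to 4. Replicate 2 was the highest array in both groups, and the groups were separate by 0.22. The means were 0.05 ± 0.20 and 0.67 ± 0.18 (SD, n = 4 each), with a difference of 0.62 ± 0.14 (SE) or 1.54-fold.

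Camk2a had -0.04, 0.28, 0.00 and 0.00 on control arrays 1 to 4 and 0.76, 0.88, 0.76 and 0.09 on JFLX arrays 1 to 4. JFLX replicates 1 to 3 lay above all controls, while JFLX replicate 4 lay among the controls and below control replicate 2, so the groups overlapped. The difference was 0.56 ± 0.19 (SE), or 1.48-fold, between means of 0.06 ± 0.15 and 0.62 ± 0.36 (SD, n = 4 each), and it was 0.74 without JFLX replicate 4. No other member had as wide a spread in the treated group.

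Arhgef7 encodes beta-PIX, an exchange factor that activates Rac1 and Cdc42 and binds GIT proteins and Shank. Its values on control arrays 1 to 4 were -0.21, 0.43, -0.05 and 0.05, against 0.36, 0.54, 0.43 and 0.49 on JFLX arrays 1 to 4. Control replicate 2 exceeded JFLX replicate 1, so the groups overlapped by 0.07 with 3 of the 4 JFLX arrays above all controls. The control mean was 0.05 ± 0.27 and the JFLX mean 0.46 ± 0.08 (SD, n = 4 each), which gives the smallest difference of the members, 0.40 ± 0.15 (SE) or 1.32-fold. Without control replicate 2 it was 0.53.

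**Figure D1:**
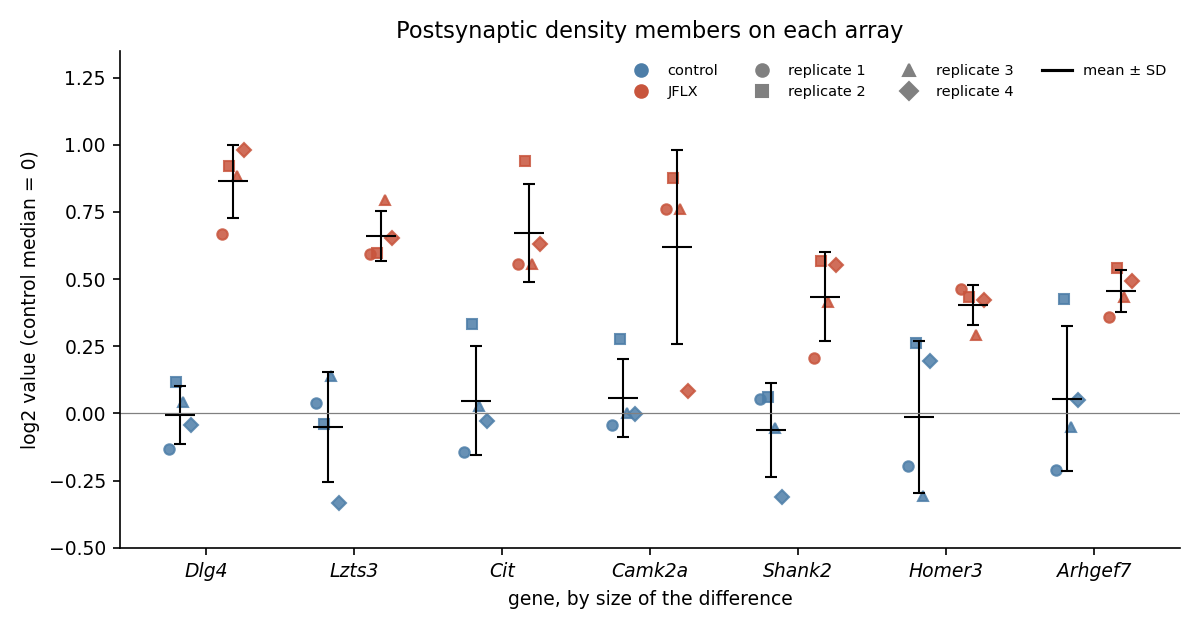
Deposited log2 values (vertical axis, control median at 0) of the 7 genes (horizontal axis, ordered by the size of the difference) on 4 control and 4 JFLX arrays, with marker shapes for replicates and bars for mean ± SD. The JFLX arrays lie above all control arrays for Dlg4, Lzts3, Cit, Shank2 and Homer3, while Camk2a (JFLX replicate 4 at 0.09) and Arhgef7 (control replicate 2 at 0.43) overlap.

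Ordered by their log2 difference, the members ran Dlg4, Lzts3, Cit, Camk2a, Shank2, Homer3 and Arhgef7. No step between neighbours in this order exceeded its combined SE, which treats the genes as independent although both were measured on the same arrays. The largest step, from Dlg4 to Lzts3, was 0.16 with a combined SE of 0.17. The smallest, from Homer3 to Arhgef7, was 0.01 with a combined SE of 0.21. An SE that takes the shared arrays into account was not computed. In this order the scaffolds hold both the first and the sixth place, and the kinases lie between them. The median difference was 0.56, against 0.57 over the 322 probes of the higher list and 0.04 over all 15207 probes. Within the higher list Dlg4 ranked 53 of 322 by difference, Lzts3 97, Cit 126, Camk2a 167, Shank2 222, Homer3 293 and Arhgef7 306. Of all probes on the array, 81.8% had a smaller difference than Arhgef7 and 90.1% a smaller one than Dlg4. Homer3 was the member nearest to the authors' limit, with a mean JFLX value of 0.40, followed by Shank2 at 0.44. The nearest unlisted probe with a p of at most 0.05 had a mean JFLX value of 0.3995.

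The 4 JFLX arrays stood above the 4 control arrays at 5 of the 7 members, a count that the selection favours. The same held at 10.0% of all probes and at 73.9% of the probes in the authors' higher list. In a limma fit over all 15207 probes with Benjamini-Hochberg adjustment and a threshold of 0.05, Dlg4, Lzts3 and Cit passed in the higher direction, 3 of the 7 members, while 5.89% of all probes and 32.6% of the higher list did. Since the members were drawn by the same contrast, nothing is read from these counts. Dlg4 passed in 14 of 15 other settings of the fit, with quantile normalisation as the exception, and Lzts3 in 11 of 15. Cit passed in 2 of 15, those with array quality weights and without control replicate 2.

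**Figure D2:**
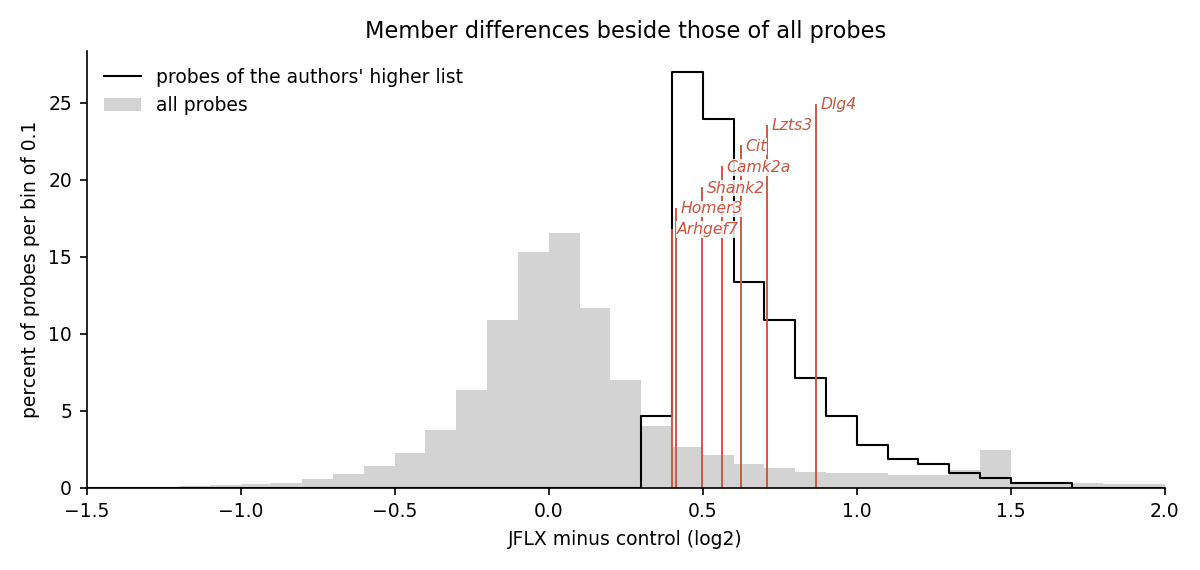
Percent of probes per bin of 0.1 (vertical axis) by their JFLX minus control difference on the log2 scale (horizontal axis), in grey for all 15207 probes and as a black outline for the 322 probes of the authors' higher list. Red lines mark the 7 genes between 0.40 and 0.87, over the same range as most of the higher list, and 122 probes lie outside the plotted range.

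The spread between arrays was smaller in the JFLX group than in the control group at 5 of the 7 genes. SDs ran from 0.07 for Homer3 to 0.36 for Camk2a in JFLX and from 0.11 for Dlg4 to 0.28 for Homer3 in control. The authors' p limit depends on the spread and the share over all probes was not computed, so this count is not read as a trait of these genes. Control replicate 2 was the highest control array at 6 of the 7 genes, Lzts3 being the exception, and control replicate 1 was the lowest at 4. Averaged over the members, control replicate 2 stood at 0.21 and the other control arrays at -0.09, -0.03 and -0.07, while the JFLX arrays 1 to 4 stood at 0.52, 0.70, 0.59 and 0.55. JFLX replicate 2 was the highest treated array at 4 genes and JFLX replicate 1 the lowest at 4. Without control replicate 2, the highest control array at Camk2a and Arhgef7, the groups did not overlap at any of the 7 genes. Leaving out an array can remove an overlap but cannot create one. The share of all probes without overlap was not computed for those arrays, so nothing is read from this count.

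**Figure D3:**
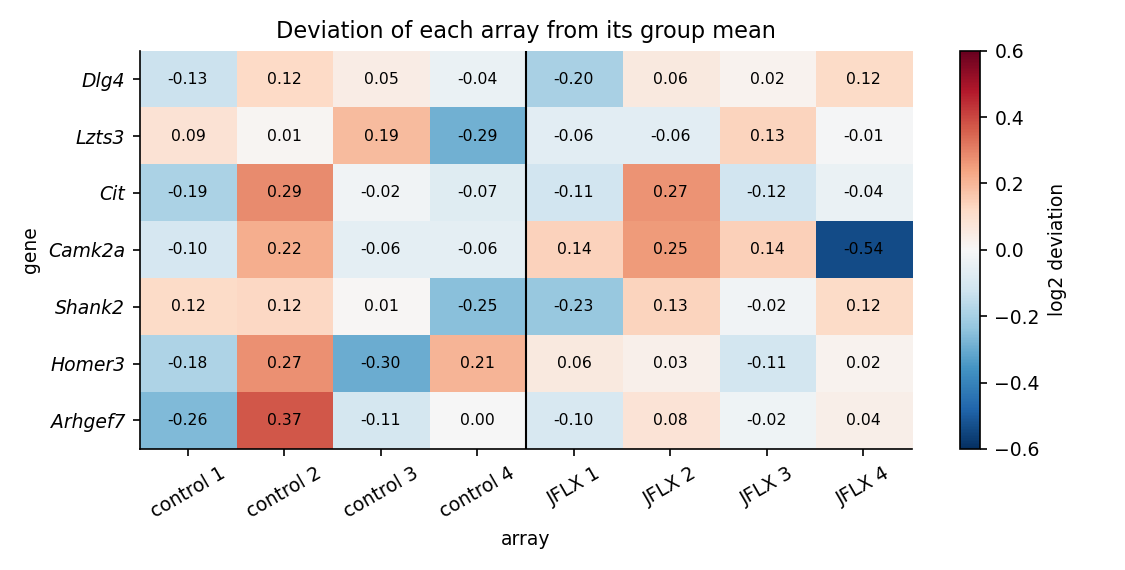
Deviation of each array from the mean of its own group on the log2 scale (colour and printed value), for the 7 genes (rows) on control arrays 1 to 4 and JFLX arrays 1 to 4 (columns, separated by the line). Control replicate 2 is above its group mean in every row, by up to 0.37 for Arhgef7, and the deepest cell is Camk2a on JFLX replicate 4 at -0.54.

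After each group's mean was taken off, the genes could be compared in how they varied between arrays of one treatment, which the rule did not use directly. Over the 8 arrays, which share one slide and one normalisation, the deviations of Cit and Arhgef7 had a Pearson correlation of 0.84, those of Homer3 and Arhgef7 0.73 and those of Dlg4 and Arhgef7 0.70. Dlg4 and Cit stood at 0.65 and the scaffolds Dlg4 and Shank2 at 0.60. In the opposite direction, Homer3 and Lzts3 had a correlation of -0.76, Shank2 and Homer3 -0.22 and Lzts3 and Arhgef7 -0.21. Camk2a stood at 0.45 with Cit, 0.30 with Arhgef7 and 0.21 with Homer3, and at -0.16 with Dlg4, -0.12 with Shank2 and -0.01 with Lzts3. Of the 21 pairs, 14 were positive, with a median of 0.26, beside a median of 0.09 over the 51681 pairs of probes in the higher list, of which 56.9% were positive. These are descriptions over 8 arrays and carry no p-value.

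Among 540 other named genes of the lists, those whose deviations were most like the mean of the members were E2f6, a repressor of the E2F family (Pearson correlation 0.92 over 8 arrays), and Rnf112, a ubiquitin ligase gene of the brain (0.91). They were followed by Tspan5, a tetraspanin (0.91), Spop, a substrate adaptor of a ubiquitin ligase (0.91), and Nsf, the ATPase that takes apart SNARE complexes (0.88). All 5 are in the authors' higher list, which holds 322 of the 582 listed probes. Their log2 differences were 0.37 ± 0.12, 0.49 ± 0.19, 0.74 ± 0.12, 0.60 ± 0.13 and 0.60 ± 0.15 (SE, n = 4 per group) in that order. As the highest of 540 correlations over 8 arrays, these values are high by selection and carry no test.

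The wider set of postsynaptic genes was taken from lists of 130 genes in 6 roles. Names were available only for listed probes, so a gene that is absent below may be unlisted or may have no probe on the array. Of the 130 genes, 12 were listed, 11 higher and 1 lower, and 3 passed in limma, all of them members (5.89% of all probes passed in this direction). The 7 members are among the 12 by the choice of the set. Over the whole array 582 of 15207 probes were listed, 322 higher and 260 lower, and no excess of listed genes in any role was tested. Listed genes had been selected by the authors on the same arrays, so their direction is not independent evidence. The 5 listed genes outside the members did not pass: 4 had higher values and 1 lower. For scaffolds, 5 of 29 genes were listed, all higher, and the addition to the members was Lin7c, a PDZ adaptor found on both sides of the synapse, at 0.43 ± 0.13 (SE, log2). For kinases and phosphatases, 2 of 22 were listed, Camk2a and Cit. For regulators of small GTPases, 2 of 21 were listed, Arhgef7 and Agap2, an Arf GTPase-activating protein listed as Centg1, which stood at 0.39 ± 0.11. For actin-linked and turnover genes, 3 of 21 were listed: Nsf at 0.60 ± 0.15 and the adducin Add3 at 0.45 ± 0.14 were higher, and the related adducin Add2 stood at -0.53 ± 0.17. The values of Add2 were 0.55, -0.24, 0.06 and -0.06 on control arrays 1 to 4 and between -0.50 and -0.42 on the JFLX arrays, all below the controls. Of 19 genes for glutamate receptors and their auxiliary subunits and 18 for synaptic adhesion, 0 were listed.

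RNA came from whole tissue, where more cells of a type and more RNA per cell cannot be told apart. Of 39 marker genes for 7 cell types, 4 were listed, 2 higher and 2 lower, while 582 of 15207 probes were listed over the array. They were 1 of 6 markers of excitatory neurons, 1 of 7 of interneurons, 1 of 5 of endothelium and 1 of 7 of astrocytes. A single gene does not stand for its cell type. Neurod2, a transcription factor of excitatory neurons, stood at -0.46 ± 0.15 (SE, log2) while the 7 members stood higher, and it did not pass. Kcnc1, a potassium channel of fast-spiking interneurons, stood at 0.50 ± 0.14 and Pecam1, an adhesion molecule of endothelium, at 0.68 ± 0.25, neither of them past the threshold. Glul, which astrocytes use to make glutamine from glutamate, fell by 0.51 ± 0.11 and passed in limma with an adjusted p of at most 0.05, beside 0.355% of all probes in that direction. The call was lost in 10 of 15 other settings, among them quantile normalisation, trend and robust, the replicate block, and leaving out any single array other than JFLX replicate 4. Of the markers of microglia (5 genes), oligodendrocytes (6 genes) and their precursors (3 genes), 0 were listed. Defining markers of cortex outside the lists carry no name here, so the tissue label could not be checked further, and the part of cell composition in the members' values was not tested.

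All 7 probes were flagged as detected on 4 of 4 control and 4 of 4 JFLX arrays in the authors' deposited table. That table also gives background-subtracted intensities, before normalisation between arrays, whose column names give the group but not the replicate. From lowest to highest, Dlg4 had 798, 810, 853 and 1087 in control and 994, 1418, 1634 and 1749 in JFLX. Camk2a had 1474, 1639, 1666 and 2304 in control and 1015, 2871, 3007 and 3052 in JFLX. In both genes 3 JFLX arrays lay above all controls and the lowest JFLX array lay below the highest control.

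Lzts3 ran from 56.5 to 79.2 in control and had 64.3, 106, 110 and 133 in JFLX, again with 3 arrays above all controls. Cit had 24.6, 25.1, 26.8 and 39.3 in control and 24.3, 40.9, 43.3 and 51.5 in JFLX. Shank2 ran from 25.6 to 37.9 and from 26.7 to 46.3, Homer3 from 16.4 to 31.5 and from 17.6 to 32.2, and Arhgef7 from 51.8 to 93.2 and from 49.1 to 88.4, control first. On this scale the groups overlapped at all 7 genes. The JFLX arrays above all controls numbered 3 at Dlg4, Lzts3, Cit and Camk2a, 2 at Shank2, 1 at Homer3 and 0 at Arhgef7. The lowest JFLX value came from the same array column for all 7, as it did for 316 of the 322 probes of the higher list (98.1%), so that column was the dimmest over that list as well. In that column Camk2a, at 1015, stood near Dlg4, at 994, while in every other JFLX column Camk2a was far above Dlg4. In the deposited values Camk2a was far below Dlg4 on JFLX replicate 4 only, at 0.09 against 0.98. By these values, and not by its name, the column is that of JFLX replicate 4. This match takes the normalisation to shift all probes of an array alike, and the other columns were not matched. The JFLX mean was higher than the control mean at 7 of 7 genes on the log2 intensity scale too, by 0.69 for Dlg4, 0.53 for Lzts3, 0.44 for Cit, 0.38 for Camk2a, 0.32 for Shank2, 0.23 for Homer3 and 0.22 for Arhgef7. Each of these is 0.18 below the deposited difference, which is what the authors' normalisation adds to the difference between the group means of every member. That amount is a mean over 4 JFLX arrays, of which 1 was the dimmest at all 7 genes. It need not apply to each JFLX array, and the part due to the dimmest one was not computed.

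**Figure D4:**
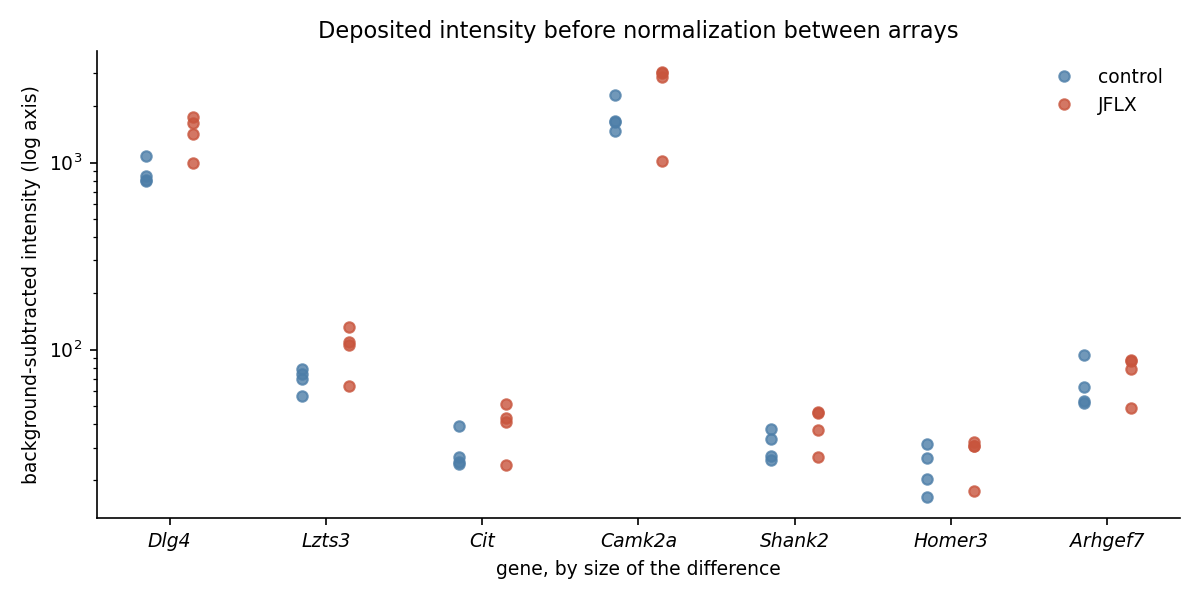
Background-subtracted intensity on a logarithmic axis (vertical) of the 7 genes (horizontal), with 1 point per control or JFLX array before normalisation between arrays; levels of different probes are not comparable. At each gene 1 JFLX point lies apart below the others, at 994 for Dlg4 and 1015 for Camk2a, and within or under the range of the control points.

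The size of the differences depended on the processing. Over 5 settings of scaling, weighting and blocking and 8 with an array left out, the difference ran from 0.56 to 0.93 for Dlg4, from 0.44 to 0.77 for Lzts3 and from 0.36 to 0.72 for Cit. Camk2a ran from 0.31 to 0.74, Shank2 from 0.30 to 0.57, Homer3 from 0.22 to 0.51 and Arhgef7 from 0.19 to 0.53. Quantile normalisation gave the lowest value for Dlg4, Lzts3, Cit, Camk2a and Arhgef7, and centring each array on its 75th percentile gave it for Shank2 and Homer3. No member changed sign in these settings or on the intensity scale.

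**Figure D5:**
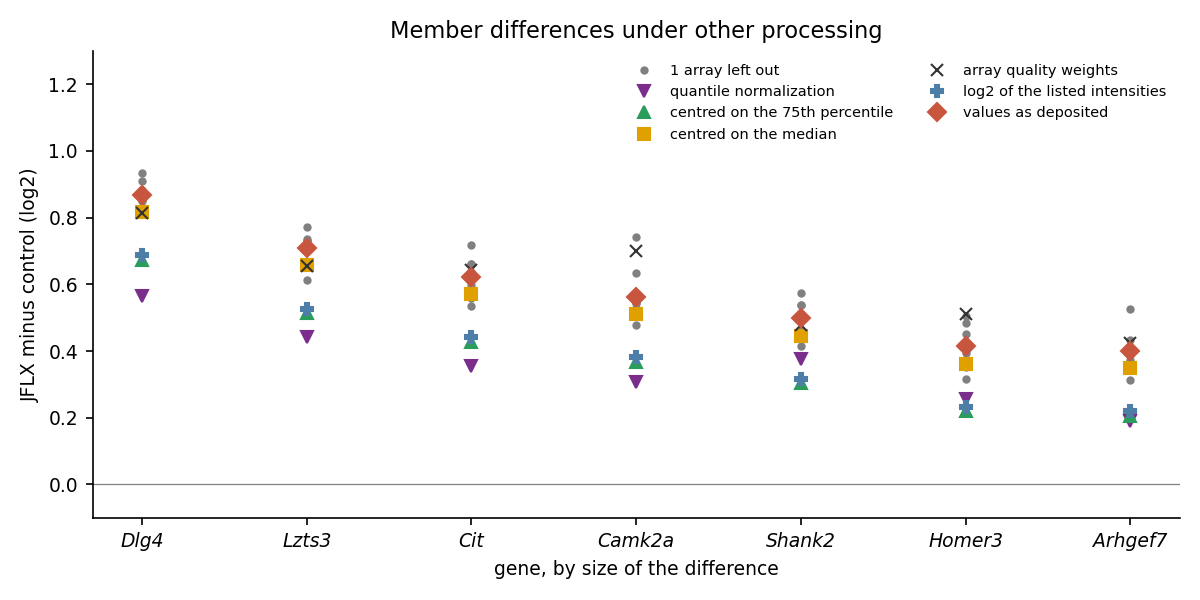
JFLX minus control difference on the log2 scale (vertical axis) of the 7 genes (horizontal axis) with the values as deposited and under other scalings, array quality weights, the listed intensities and with 1 array left out. All points are above 0; quantile normalisation, centring on the 75th percentile and the intensities lie lowest, down to 0.19 for Arhgef7.

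The sequences before the transcription starts were compared because the 7 genes differ in the same direction. RefSeq promoters of GRCr8 matched 6 of them by symbol, and Shank2 had no entry. In the 250 bases before the start, both strands were searched for a GC box (GGGCGG), a cyclic AMP response element (TGACGTCA), an E box (CACGTG) and a TATA box (TATAAA). No motif was common to the 6. The GC box was present in Arhgef7, 5 times, and in Lzts3, 2 times, and in 30.5% of 33469 promoters. The E box was found in Cit and in 5.59% of promoters, and the cyclic AMP response element and the TATA box in 0 of the 6, beside 1.59% and 12.9% of promoters. GC content ran from 43.6% for Cit to 78.0% for Arhgef7, with a median of 51.2% over all promoters. The sequences at both ends of the order of differences are shown 5′ to 3′ with GC boxes in capitals, none of which overlaps another searched motif and none of which occurs in Dlg4. That of Dlg4 lies at chr10:55239534-55239783 on the plus strand and that of Arhgef7 at chr16:84484389-84484638 on the minus strand of GRCr8.
Dlg4: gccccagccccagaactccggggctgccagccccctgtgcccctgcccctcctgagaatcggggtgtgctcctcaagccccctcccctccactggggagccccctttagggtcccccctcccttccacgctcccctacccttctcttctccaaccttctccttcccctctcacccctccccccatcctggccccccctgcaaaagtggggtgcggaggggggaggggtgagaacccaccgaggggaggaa
Arhgef7: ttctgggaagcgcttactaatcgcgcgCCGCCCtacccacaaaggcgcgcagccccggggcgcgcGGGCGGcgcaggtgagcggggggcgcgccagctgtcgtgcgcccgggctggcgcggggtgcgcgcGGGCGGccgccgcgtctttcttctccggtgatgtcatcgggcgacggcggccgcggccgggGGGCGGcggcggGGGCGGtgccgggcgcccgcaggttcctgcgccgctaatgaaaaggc
A match of these letters is a description of the sequence and says nothing of binding.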

How the data were processed

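The deposited value table holds log2 values of 15207 probes on 8 arrays, normalized between arrays and centred at each probe on the control median by the authors. Which normalization, scanner software and genome build they used is not stated in the sources used here. The authors' deposited lists add, per the file headers, background-subtracted intensity, group means on the log2 scale, a p-value from an unnamed test, and counts of detected flags. In each list 16 columns of folds and flags for single arrays were not used here. Members and gene lists were chosen with earlier results of these data known. Named genes are all members, all listed genes of the postsynaptic and marker lists, and the 5 genes closest to the members in their deviations.

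Differences were fitted with limma 3.58.1 in R 4.3.3 (lmFit, then eBayes with no trend and no replicate block). Tests were two-sided, p-values were adjusted by Benjamini-Hochberg over 15207 probes, and the threshold was 0.05. SE is the moderated standard error. The fit was tested on simulated data. Tables and plots used Python 3.11.15, pandas 2.3.3 and matplotlib 3.10.9. Of the members, 6 took their symbol from the gene ID in a RefSeq table of GRCr8, and Camk2a kept the name in the list. Alternatives covered scaling (quantile normalization, or centring on an array's median or 75th percentile), the variance model (trend and robust, an unmoderated equal-variance test), weights by array quality, the replicate number as a block, the listed intensities, and leaving out each array. A promoter search for an NRF1 site gave no match among the members and is not detailed here. The number of arrays limits the precision.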

Additional observations from a re-analysis of the deposited data

Results flagged for a closer look

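Within the groups of 4 arrays, 2 of 14 member groups held an array that stood apart from the others by Dixon's test, where chance flags about 1 in 20. Both concern Camk2a. Control replicate 2 was the highest control array at 0.28, with a gap to the next of 0.859 of the group's range. JFLX replicate 4 was the lowest JFLX array at 0.09, with a gap of 0.853 of the range, while Dlg4 had its highest value, 0.98, on the same array. Before normalisation, the column matched to that array by value was the dimmest, with the lowest JFLX intensity of Dlg4, 994. Over all probes its deposited values had the highest median (0.12) and 75th percentile (0.44) of the 8 arrays. What set these 2 values apart was not tested.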

How the results depend on the processing

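With the values as deposited, 950 probes passed in limma (896 higher, 54 lower), 3 of the 7 members among them, and the median difference of the members was 0.56. Quantile normalization gave 0 probes, 0 members and a median of 0.36. It gives all arrays 1 distribution, while the centring on the control median narrows the control arrays against the JFLX arrays by construction. Whether that accounts for the lost calls was not tested. Centring on the 75th percentile gave 903 probes (682 higher, 221 lower), 1 member and a median of 0.37, since it takes a constant off every difference. That percentile was 0.10 to 0.16 on the control arrays and 0.27 to 0.44 on the JFLX arrays. In values already centred at each probe it follows the spread of an array as well as its level, so the smaller median is not read as a better estimate. Trend and robust gave 759 probes (759 higher, 0 lower) and 1 member, and the cause was not tested. Of 98 single member values under other settings, 87 moved by less than 1 SD between replicates, 11 by more and 0 changed sign. Leaving out 1 array gave 780 to 907 probes, 2 to 4 members and medians of 0.48 to 0.64: Arhgef7 passed without control replicate 2 and Camk2a without JFLX replicate 4, while Cit passed only without control replicate 2. The count of 5 members without overlap, whose alternatives were chosen after seeing the data, was 0 on the listed intensities, 4 with centring on the 75th percentile and 5 to 7 with 1 array left out, which can remove an overlap but cannot create one. The replicate block gave 764 probes and 1 member, Dlg4, with the same median of 0.56. Same-numbered arrays had correlations of -0.04, 0.40, 0.12 and -0.28 in their deviations, and 3 of 8 arrays were closest to their own number. A pairing by number was not shown by these values, and so few arrays cannot exclude one. A filter on dim probes was not run because flags are given for listed probes only, and averaging probes changes nothing with 1 probe per gene.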
